A study of Danio rerio with 14 samples.

Results

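The comparison described here sets zebrafish embryos of a 1-year brood whose parents had been exposed to gamma radiation at 8.7 mGy/h against embryos of unexposed parents bred at the same time. It covers 6 of the 14 samples of the series and every gene of the table deposited for this contrast, 12502 of the 14077 genes listed in the 3 tables of the series. Adult fish of the AB wild type strain were irradiated while their gametes were forming and were bred 1 month later and again a year later, and mRNA of their F1 embryos was sequenced. The 8.7 mGy/h 1 yr group, called the exposed brood below, has 3 samples, each of 100 pooled AB embryos at 5.5 hours post fertilization (hpf). The Control 1 yr group, called the control brood, has 3 samples of 100 pooled AB embryos of the same age from parents that were not irradiated. The embryos themselves were not irradiated. The labels do not say how many parents or clutches stand behind each sample, so the spread between samples may be in part technical.

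A zebrafish egg starts development on RNA and protein that the mother stored in it. In the maternal-to-zygotic transition this stored RNA is degraded while the embryo's own genome is switched on, and by the onset of gastrulation both RNA populations are present in the same embryo. At that stage the blastoderm is covered by a flat epithelium, the enveloping layer, sits on the yolk syncytial layer, and is divided by Nodal, BMP, FGF and Wnt signals into mesendoderm and ectoderm.

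The deposited table gives 1 value per gene and group, as RPM, a read count scaled to the total reads of the library, and as log2 of RPM. It also gives a false discovery rate (FDR) adjusted by the authors over all genes. Values per sample are not given in it, so each RPM below is the authors' value for 3 samples and carries no standard deviation. The log2 change is the difference of both log2 values, positive where the exposed brood was higher. A gene is called, and is said to rise or fall, where the FDR in the authors' deposited table was under 0.05. The table gives no unadjusted p-value, so a count of 0 below refers to this FDR alone. The spacing of low values corresponds to a geometric mean depth of about 23.6 M reads per library in the exposed brood and 22.6 M in the control brood, so that 10 RPM stood for about 236 and 226 reads per library. Libraries were not strand-specific, and reads of the 2181 genes that overlap another listed gene cannot be assigned to one of them with certainty. In whole embryos, fewer cells of a type and less RNA per cell cannot be told apart.

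To set the labelled stage beside markers, their presence among the listed genes was counted. This count does not test whether both groups were at the same stage. All 11 mesendoderm markers were listed, with 5 of 6 ectoderm markers, 12 of 13 enveloping layer markers and 8 of 10 yolk syncytial layer markers, and 0 of 14 markers of later stages such as globins, muscle and neuron genes were among the listed genes. Of 12 markers of adult gonad and blood, 3 were listed. Markers were matched by symbol, so a marker counted as not listed may stand in the table under another symbol.

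In the exposed brood 5301 genes were called, 42.4% of all listed genes: 2500 rose (20.0%) and 2801 fell (22.4%). Called rises were smaller in size than called falls. The median log2 change was 0.33 among rises and -0.71 among falls, and -0.09 over all genes. Of the rises, 1964 were below 1.5-fold, against 947 of the falls. At least 3-fold rises were seen in 13 genes and at least 3-fold falls in 39. The smallest called rise had a log2 change of 0.05 and the smallest called fall one of -0.23. The calls thus did not lie evenly around a log2 change of 0. For gsc and mixl1, named after their values were seen, the log2 change was -0.09. Their FDR in the authors' deposited table was 0.992 and 0.991. The sizes of rises and falls given here are counted from 0, and the part of this offset in their difference was not tested.

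**Figure D1:**
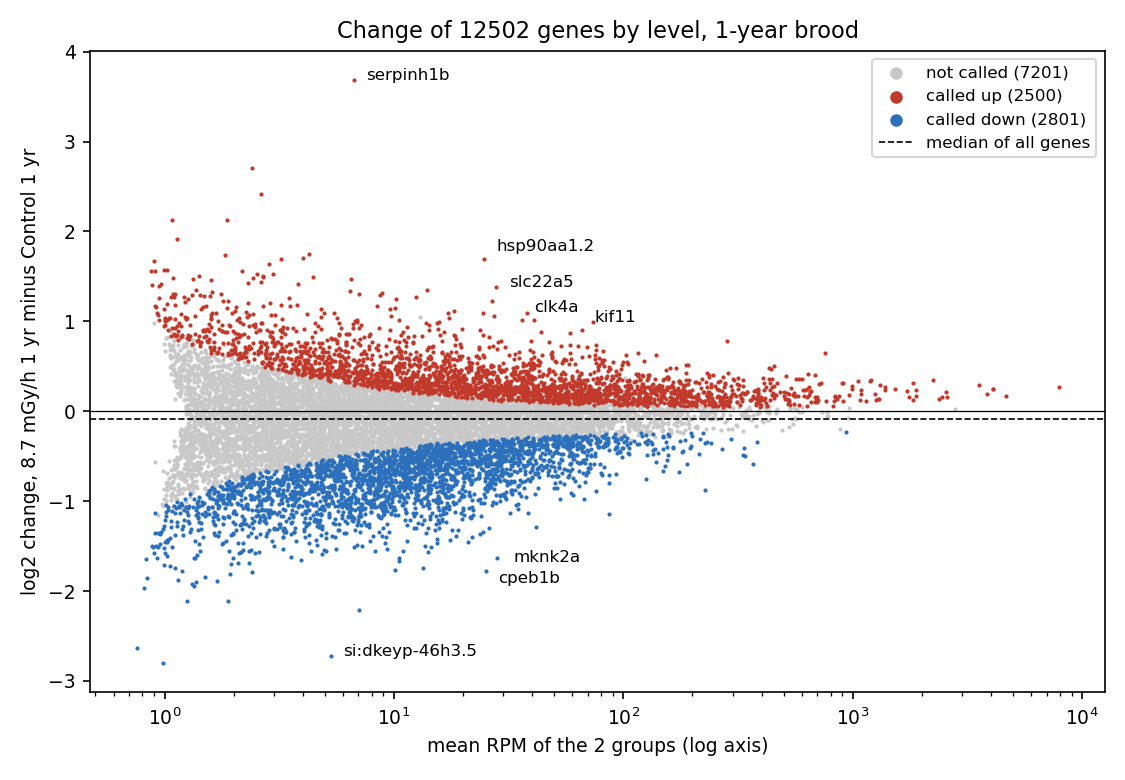
Log2 change (8.7 mGy/h 1 yr minus Control 1 yr, vertical axis) of each listed gene against its mean RPM in both groups (horizontal log axis), coloured by the deposited call. Called rises lie close to 0 at the right, where RPM is high, while called falls reach below -1 over the middle of the range, and serpinh1b stands alone at the top with a log2 change of 3.69.

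The share and direction of calls went with the level of a gene. Below 2 RPM, 8.69% of genes rose and 12.9% fell. Called falls were most frequent between 10 and 20 RPM, where 32.2% of genes fell and 19.5% rose. The median log2 change of all genes hardly differed between these bins, at -0.16 below 2 RPM and -0.18 between 10 and 20 RPM. The larger share of falls there is thus one of calls and not of larger changes. The median was 0.07 between 100 and 500 RPM and 0.17 from 500 RPM on. From 50 RPM on the order turned: of the 1076 genes between 50 and 100 RPM 366 rose and 203 fell. Between 100 and 500 RPM 52.3% rose and 7.74% fell, and among the 109 genes of at least 500 RPM 89 rose and 1 fell. Direction also went with the span of the gene on the chromosome, from first to last base of the gene model, introns included. In the eighth of genes with the shortest spans (at most 5021 bp) 27.3% rose and 10.2% fell, and in the eighth with the longest (at least 71902 bp) 11.8% rose and 34.4% fell. The median span was 13377 bp for genes that rose, 26990 bp for genes that fell and 16127 bp for genes not called. With the genes split first into 3 equal groups by mean RPM and then by 4 span groups, this order was kept in each. In the group of highest RPM, 45.7% of the genes with the shortest spans rose and 12% fell, while 19.8% of those with the longest spans rose and 31.7% fell. Level and span moved with the calls of the families described below, and their part in those calls was not tested.

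**Figure D2:**
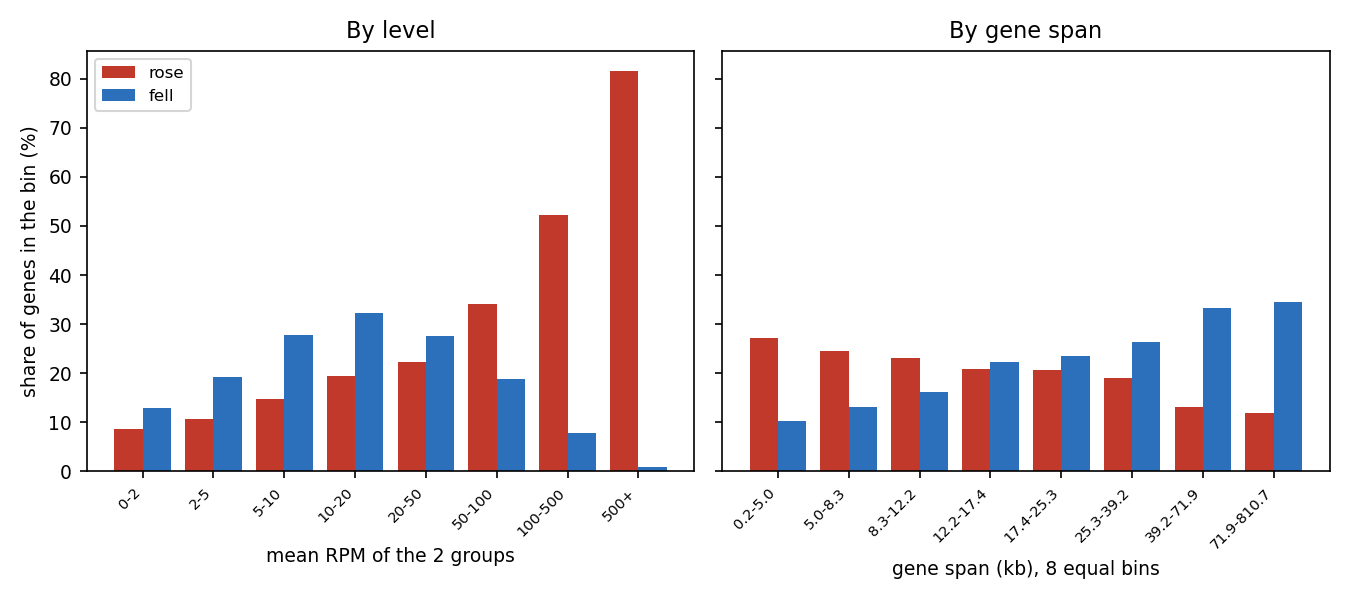
Share of genes that rose (red) and fell (blue) in bins of mean RPM (left) and in 8 bins of equal gene number by gene span (right). Rises reach 81.7% of genes at 500 RPM and above, and the share of falls grows from 10.2% in the shortest span bin to 34.4% in the longest.

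The gene that stood farthest from the rest was serpinh1b (ENSDARG00000019949, GRCz10 chromosome 15, 29450292 to 29454673, minus strand), which encodes the collagen-specific chaperone of the endoplasmic reticulum. It had 12.4 RPM in the exposed brood and 0.96 RPM in the control brood, a log2 change of 3.69 with an FDR listed as 0 in the authors' deposited table. No other gene of at least 5 RPM changed as much. Among at least 4-fold rises at lower levels was apoa1b, an apolipoprotein gene of the yolk syncytial layer, with 4.45 RPM in the exposed brood and 0.83 RPM in the control brood. Some heat shock and cochaperone genes were high as well, though their family of 92 genes had as many falls (25) as rises (25). Among its falls the cochaperone gene dnajc5ga had 11.2 RPM in the exposed brood and 30.65 RPM in the control brood (log2 change -1.45). The cytosolic Hsp90 gene hsp90aa1.2, which overlaps its neighbour hsp90aa1.1, had 37.7 RPM in the exposed brood and 11.7 RPM in the control brood (log2 change 1.69, FDR 5.26e-06 in the authors' deposited table). DNAJA4, an Hsp70 cochaperone, had 10.02 RPM in the exposed brood against 4.04 RPM in the control brood (log2 change 1.31). The inducible Hsp70 gene hsp70.1 had 1.37 RPM in the exposed brood and 0.43 RPM in the control brood and was called. The Hsp70 copies hsp70.2 and hsp70.3, named after their values were seen, were not called: hsp70.2 had a log2 change of 1.08 (FDR 0.279) and hsp70.3 one of 1.05 (FDR 0.129) in the authors' deposited table.

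The further genes with large rises were of varied function. They included slc22a5, a carnitine transporter gene, with 40.4 RPM in the exposed brood and 15.5 RPM in the control brood, and slc16a10, an amino acid transporter gene, with 12.6 RPM in the exposed brood and 5.08 RPM in the control brood. Also among them were the cytochrome P450 genes cyp2x6, with 17.6 RPM in the exposed brood and 7.28 RPM in the control brood, and cyp2aa4, with 23.3 RPM in the exposed brood and 11.4 RPM in the control brood. The arginine and serine rich protein gene rsrp1 had 51.8 RPM in the exposed brood and 24.3 RPM in the control brood (log2 change 1.09). The splicing kinase gene clk4a had 48.4 RPM in the exposed brood and 24 RPM in the control brood (log2 change 1.01). The smallest FDR values among rises also held kif11, the spindle motor gene, with 85.9 RPM in the exposed brood and 45.9 RPM in the control brood (FDR 4.24e-40 in the authors' deposited table).

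The largest falls were of genes of varied function. The maternal poly(A) regulator gene cpeb1b had 11.4 RPM in the exposed brood and 38.8 RPM in the control brood (log2 change -1.77), the largest fall among genes of at least 10 RPM. The cortactin-binding protein gene cttnbp2 had 4.61 RPM in the exposed brood and 15.7 RPM in the control brood (log2 change -1.76). The kinase gene mknk2a, whose product phosphorylates the cap-binding protein eIF4E, had 13.7 RPM in the exposed brood and 42.6 RPM in the control brood (log2 change -1.64). Among lower genes, mark4a, a microtubule affinity kinase gene, had 2.5 RPM in the exposed brood and 11.6 RPM in the control brood (log2 change -2.21).

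Falls of like size differed widely in their FDR. Of 114 genes that fell at least 2-fold at a mean of 10 RPM or more, the median FDR in the authors' deposited table was 1.35e-10, the smallest 3.06e-25 (mknk2a) and the largest 0.00707, and 22 lay above 1e-05. The gene pair cttnbp2 and sh2d5 shows it: sh2d5, an SH2 domain adaptor gene, had 5.04 RPM in the exposed brood and 16 RPM in the control brood, close to cttnbp2 in level and change, yet its FDR in the authors' deposited table was 0.000294, against 4.92e-17 for cttnbp2. The 16 rises of at least 2-fold at that level had FDR values between 1.93e-43 and 5.26e-06.

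**Figure D3:**
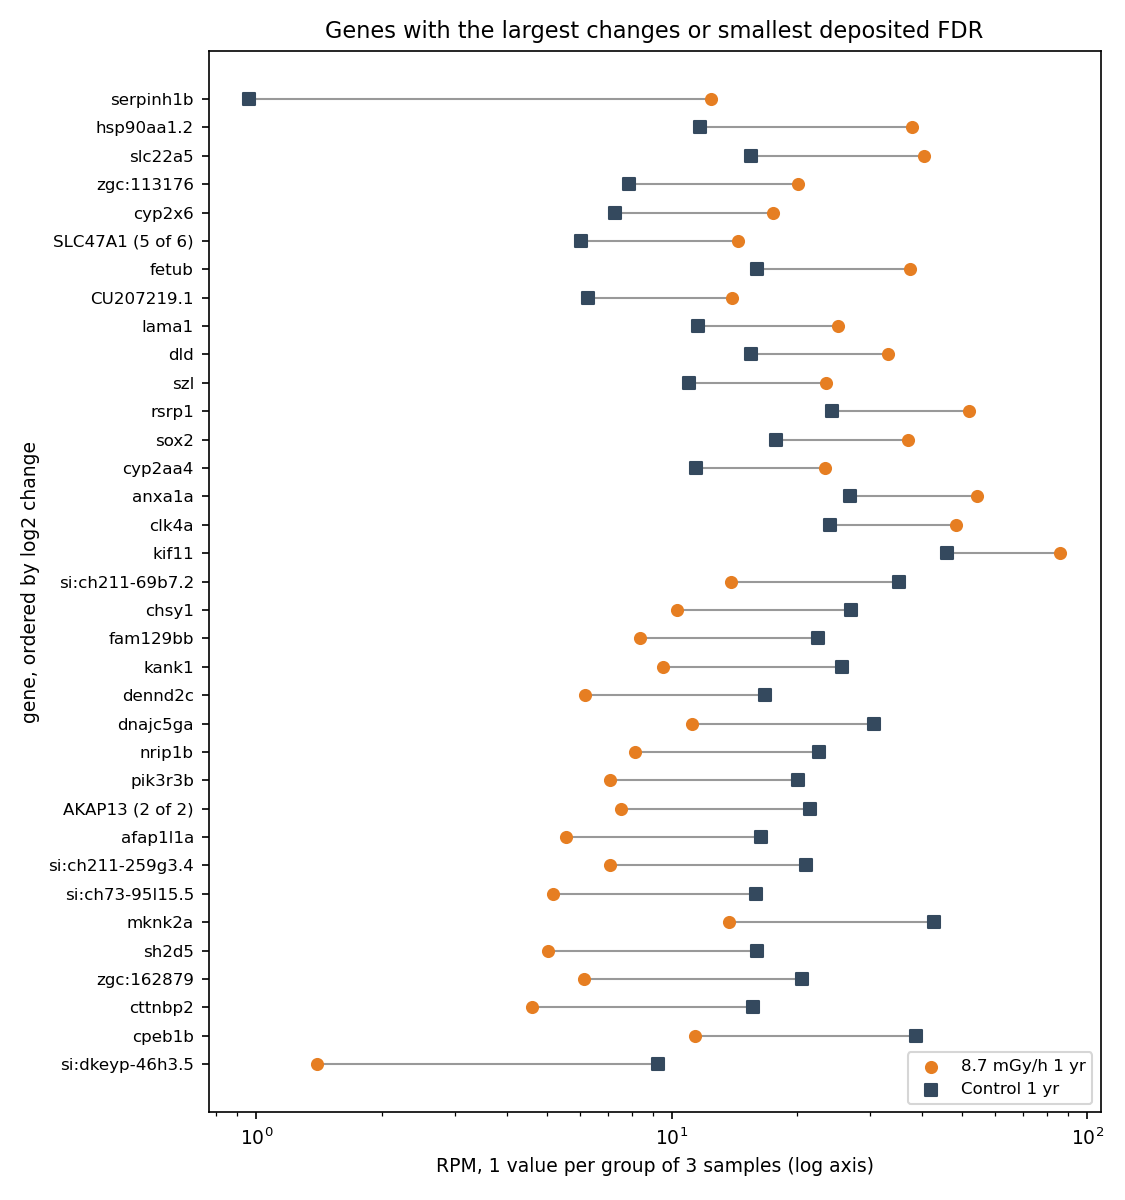
RPM of the 8.7 mGy/h 1 yr group (orange circles) and the Control 1 yr group (dark squares) on a log axis for the 15 largest rises and falls at a mean of 10 RPM or more and the 5 smallest deposited FDR values each way, ordered by log2 change. The points are 1 value per group, and serpinh1b at the top and si:dkeyp-46h3.5 at the bottom have the widest gaps.

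Genes were then grouped into 95 families and pathways by symbol, described by counts and medians without a test of the family. Rises outnumbered falls in 46 families and falls outnumbered rises in 45. A family share is to be read against 20.0% of all genes that rose and 22.4% that fell, and a family median against the -0.09 of all genes.

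**Figure D4:**
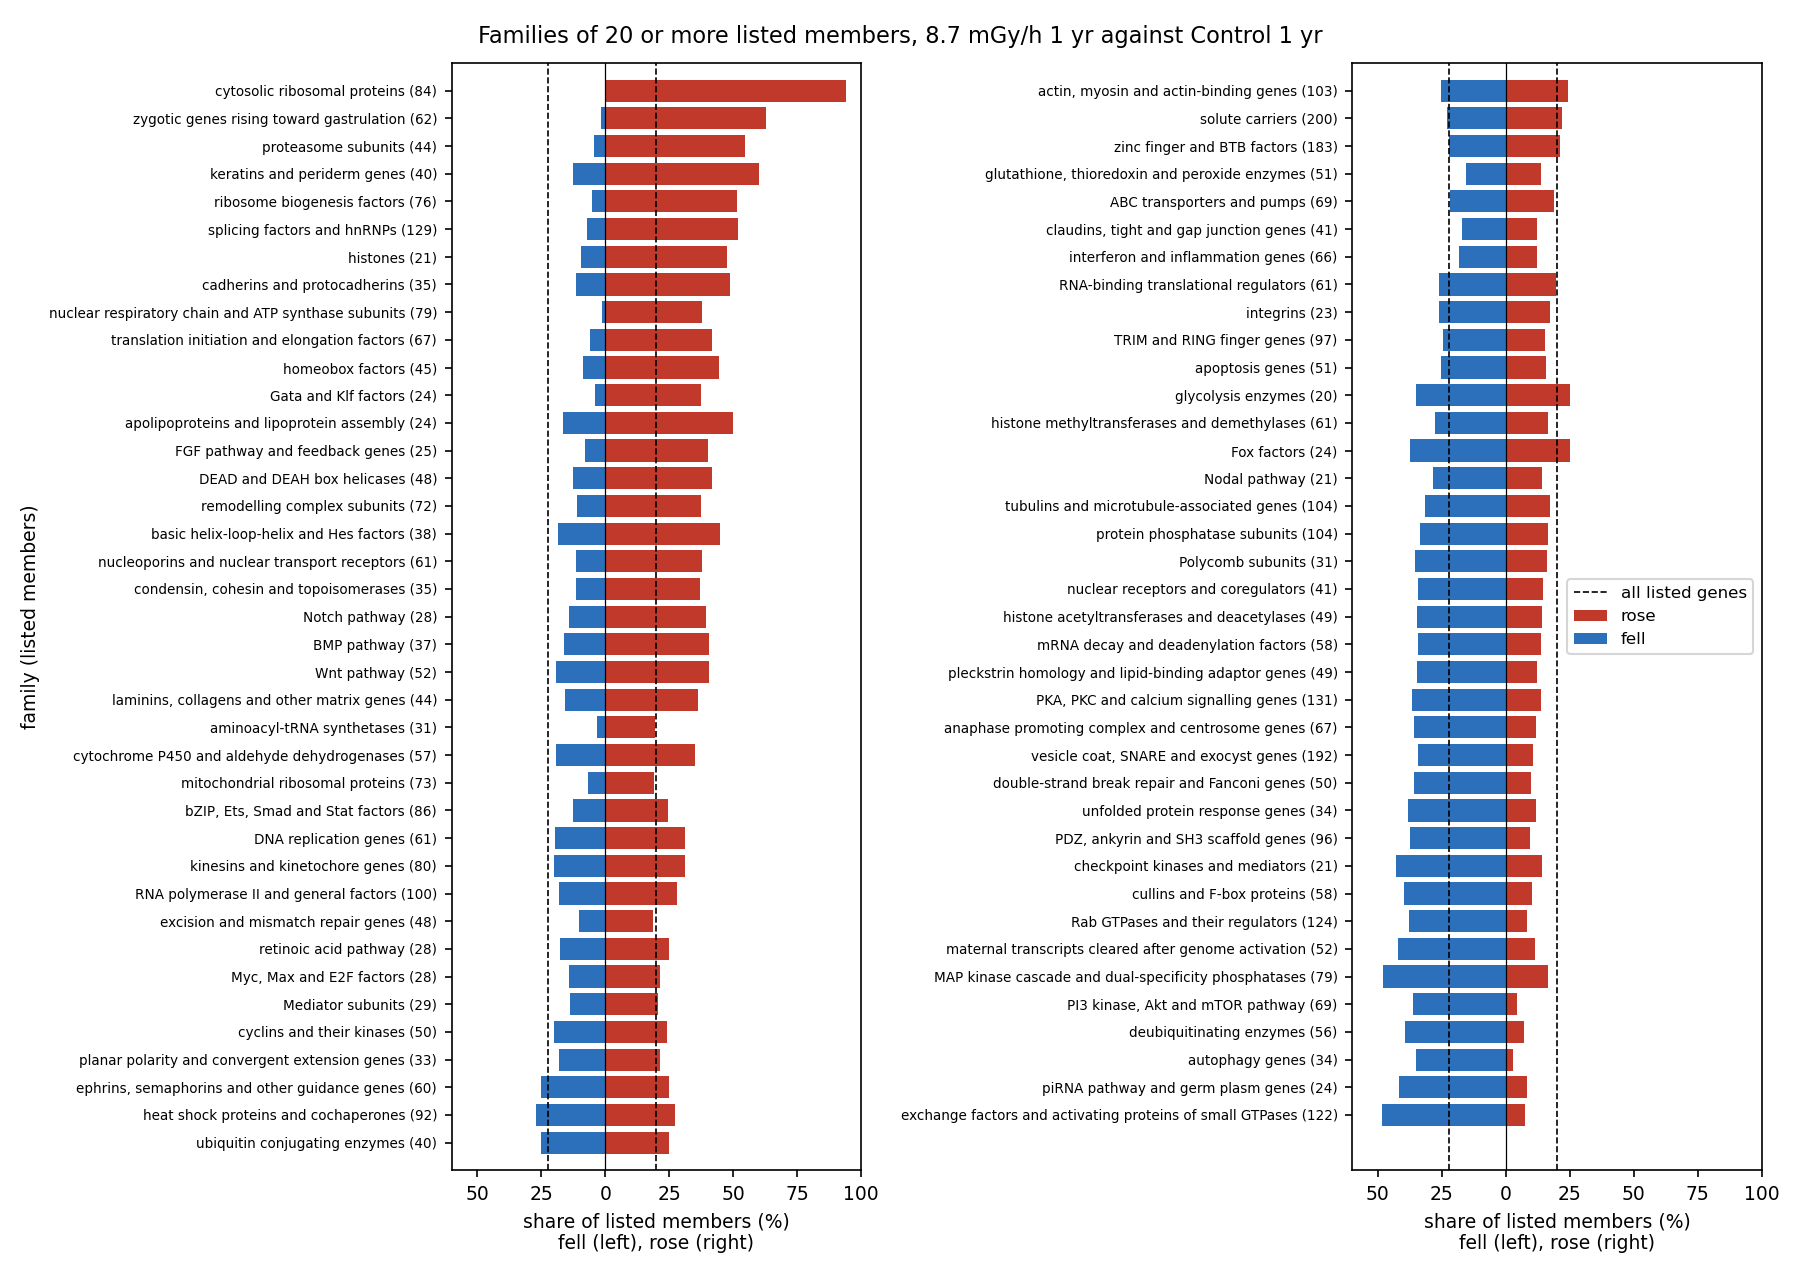
Share of listed members that rose (red, right) and fell (blue, left) in 77 of the 79 families of 20 or more listed members (the other 2 are not reported here), ordered by the difference of both shares, with dashed lines at the 20.0% and 22.4% of all genes. Cytosolic ribosomal proteins head the left panel with 94.0% risen, and exchange factors and activating proteins of small GTPases close the right panel with 48.4% fallen.

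Cytosolic ribosomal protein genes rose almost as a block, by small steps. Of 84 cytosolic ribosomal protein genes 79 rose and 0 fell, with a median log2 change of 0.23. For the small subunit, rps2 had 346 RPM in the exposed brood and 280.4 RPM in the control brood (log2 change 0.30). For the large subunit, rpl12 had 435.7 RPM in the exposed brood and 393.3 RPM in the control brood (log2 change 0.15). Called members shared a direction within a narrow band of change, and the median span of the family was 5353 bp. Ribosomal proteins of the mitochondrion, 73 genes, did not share it: 14 rose, 5 fell and the median was 0.06. Of 67 translation initiation and elongation factor genes 28 rose and 4 fell. The elongation factor gene eef1a1l1 had 8639 RPM in the exposed brood and 7143 RPM in the control brood (log2 change 0.27). Among the factors that fell were 2 alternative cap-binding proteins: eif4e2 had 14.4 RPM in the exposed brood and 22.8 RPM in the control brood, and eif4e3 had 21.6 RPM in the exposed brood and 30.8 RPM in the control brood. The standard cap-binding gene eif4ea had 9.71 RPM in the exposed brood and 6.29 RPM in the control brood (log2 change 0.63).

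Ribosome biogenesis factors, which process and assemble ribosomal RNA in the nucleolus, counted 39 rises and 4 falls among 76 genes (median 0.12). The rRNA methyltransferase gene nop2 had 47.7 RPM in the exposed brood and 34.2 RPM in the control brood (log2 change 0.48). Nucleolin, encoded by ncl, had 2586 RPM in the exposed brood and 2310 RPM in the control brood (log2 change 0.16). Of the 31 aminoacyl-tRNA synthetase genes, which charge tRNAs, 6 rose and 1 fell, shares below those of all genes.

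Among energy genes, the counts of respiratory chain and ATP synthase genes differed by the genome that encodes them. Of 79 nuclear genes for respiratory chain and ATP synthase subunits 30 rose and 1 fell (median 0.16), whereas of 13 transcripts encoded in the mitochondrial DNA 0 rose and 7 fell (median -0.34). For complex I, the nuclear gene ndufs6 had 9.54 RPM in the exposed brood and 6.39 RPM in the control brood (log2 change 0.58), while mitochondrial mt-nd2 had 179 RPM in the exposed brood and 248 RPM in the control brood (log2 change -0.47). Not every mitochondrial transcript moved: mt-co1, a complex IV subunit, had 2807 RPM in the exposed brood and 2766 RPM in the control brood and was not called. Glycolysis enzymes, 20 genes, had 5 rises and 7 falls. The hexokinase gene hk1 had 7.04 RPM in the exposed brood and 4.04 RPM in the control brood (log2 change 0.80), and the pyruvate kinase gene pkma had 15.8 RPM in the exposed brood and 24.8 RPM in the control brood (log2 change -0.65). Among lower genes aldocb, an aldolase gene, had 3.40 RPM in the exposed brood and 8.07 RPM in the control brood. Citrate cycle enzymes had 2 rises and 3 falls among 19 genes. Citrate synthase, cs, was among the falls, with 59.1 RPM in the exposed brood and 79.3 RPM in the control brood.

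Protein degradation showed opposite counts for the proteasome and for the enzymes that choose or spare its substrates. Of 44 proteasome subunit genes 24 rose and 2 fell (median 0.15). The core subunit gene psma1 had 19.4 RPM in the exposed brood and 13.2 RPM in the control brood (log2 change 0.56). The activator gene psme4b, in contrast, had 47.0 RPM in the exposed brood and 60.0 RPM in the control brood (log2 change -0.35). Of 56 deubiquitinating enzyme genes, which remove ubiquitin from proteins, 4 rose and 22 fell (median -0.27). Large falls there included usp20, with 3.48 RPM in the exposed brood and 8.89 RPM in the control brood (log2 change -1.35), and usp33, with 8.73 RPM in the exposed brood and 20.0 RPM in the control brood (log2 change -1.20). Cullins and F-box proteins, parts of ubiquitin ligases, counted 6 rises and 23 falls among 58 genes, and ubiquitin conjugating enzymes 10 rises and 10 falls among 40. Autophagy genes, 34 in all, had 1 rise and 12 falls. The rise was map1lc3b, a marker protein of the autophagosome, with 118 RPM in the exposed brood and 93.4 RPM in the control brood. Upstream in that pathway the starter kinase gene ulk1a had 0.76 RPM in the exposed brood and 1.78 RPM in the control brood (log2 change -1.22).

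Chaperone families differed. The 92 heat shock protein and cochaperone genes had 25 rises and 25 falls, whereas chaperonin CCT and prefoldin subunits, which fold actin and tubulin, had 7 rises and 0 falls among 14. The constitutive Hsp70 gene hspa8 had 2488 RPM in the exposed brood and 2264 RPM in the control brood (log2 change 0.14). Its counterpart in the endoplasmic reticulum, hspa5, fell, with 110 RPM in the exposed brood and 142 RPM in the control brood (log2 change -0.37). The unfolded protein response genes, to which hspa5 belongs, had 4 rises and 13 falls among 34. One of them, pdia4, a disulfide isomerase gene, had 7.03 RPM in the exposed brood and 14 RPM in the control brood.

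RNA processing genes rose more often than RNA decay genes. Of 129 splicing factor and hnRNP genes 67 rose and 9 fell (median 0.10). RBM5, a regulator of splice site choice, had 75.6 RPM in the exposed brood and 41.5 RPM in the control brood (log2 change 0.87), and rbm47 had 18.8 RPM in the exposed brood and 9.64 RPM in the control brood (log2 change 0.96). DEAD and DEAH box helicases counted 20 rises and 6 falls among 48. Among them dhx9 had 64.9 RPM in the exposed brood and 43.9 RPM in the control brood (log2 change 0.56), and ddx6, a helicase of RNA decay and storage granules, had 9.19 RPM in the exposed brood and 20.2 RPM in the control brood (log2 change -1.14). Decapping, deadenylation and other decay factors had 8 rises and 20 falls among 58 genes. The granule protein gene lsm14b had 41.6 RPM in the exposed brood and 79.1 RPM in the control brood (log2 change -0.93). The 4 listed argonaute genes, grouped after their values were seen, fell. Of these ago1 had 5 RPM in the exposed brood and 10.9 RPM in the control brood, and ago3b had 9.85 RPM in the exposed brood and 18.4 RPM in the control brood.

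Germ plasm and piRNA pathway genes, whose RNA the egg stores for the future germ cells, fell in 10 of 24 cases and rose in 2 (median -0.35). The germ plasm organizer gene buc had 24.1 RPM in the exposed brood and 58.7 RPM in the control brood (log2 change -1.29). The Tudor domain gene tdrd6, which overlaps pla2g7, had 9.38 RPM in the exposed brood and 21.6 RPM in the control brood (log2 change -1.21). Both rises were small: TDRD15 had 57.2 RPM in the exposed brood and 43 RPM in the control brood, and the Vasa helicase gene ddx4 had 187 RPM in the exposed brood and 168 RPM in the control brood. Of the 10 listed germ plasm markers 1 rose, 4 fell and 5 were not called. Summed over these markers, the exposed brood had 296 RPM and the control brood 354 RPM.

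Maternal and zygotic gene lists moved apart in counts and medians. Of 62 zygotic genes, those whose RNA accumulates toward gastrulation, 39 rose and 1 fell (median 0.25), the fall being fgf8a with 21.8 RPM in the exposed brood and 28.2 RPM in the control brood. Of 52 maternal transcripts that are cleared after genome activation 6 rose and 22 fell (median -0.30). The summed level of the maternal list was nearly the same, with 6121 RPM in the exposed brood and 6181 RPM in the control brood. For the zygotic list the sums were 7408 RPM in the exposed brood and 6165 RPM in the control brood. The actin nucleator gene spire1a, from the maternal list, had 8.08 RPM in the exposed brood and 18.1 RPM in the control brood (log2 change -1.17). Not all maternal genes fell, since the nuclear import receptor gene kpna2 had 85.9 RPM in the exposed brood and 56.2 RPM in the control brood (log2 change 0.61). The lists include genes whose behaviour in these data was already known when they were drawn up.

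Chromatin genes were split by complex. Of 72 subunits of remodelling complexes 27 rose and 8 fell. The SWI/SNF ATPase gene smarca4a had 537 RPM in the exposed brood and 462 RPM in the control brood (log2 change 0.22). Another BAF subunit gene, arid1b, had 6.01 RPM in the exposed brood and 12.1 RPM in the control brood (log2 change -1.01). Histone genes, of which poly(A) selection captures mainly polyadenylated forms, had 10 rises and 2 falls among 21: h2afy, encoding macroH2A, had 23.2 RPM in the exposed brood and 15.2 RPM in the control brood (log2 change 0.61), and h2afx, the variant marked at DNA breaks, had 10.8 RPM in the exposed brood and 16.7 RPM in the control brood (log2 change -0.63). The enzymes that write and erase marks fell more often than they rose. Histone acetyltransferase and deacetylase genes counted 7 rises and 17 falls among 49, and histone methyltransferase and demethylase genes 10 rises and 17 falls among 61. The shares of the methyltransferase and demethylase family, 16.4% risen and 27.9% fallen, were not far from those of all genes. The demethylase gene kdm4ab had 19.8 RPM in the exposed brood and 38.1 RPM in the control brood (log2 change -0.94). Polycomb subunits had 5 rises and 11 falls among 31, with bmi1a at 10.5 RPM in the exposed brood and 23.1 RPM in the control brood (log2 change -1.13). Among RNA polymerase II and general factor genes 28 of 100 rose and 18 fell, the largest subunit gene polr2a having 215 RPM in the exposed brood and 160 RPM in the control brood (log2 change 0.42). Its partner at promoters, the TATA-binding protein gene tbp, had 46 RPM in the exposed brood and 81.6 RPM in the control brood (log2 change -0.83).

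Cell cycle families were mixed. Of 61 DNA replication genes 19 rose and 12 fell. The ribonucleotide reductase gene rrm2 had 59.6 RPM in the exposed brood and 34.9 RPM in the control brood (log2 change 0.77), and the helicase subunit gene mcm2 had 91.9 RPM in the exposed brood and 64.1 RPM in the control brood (log2 change 0.52). The origin recognition gene orc3 had 8.22 RPM in the exposed brood and 14.8 RPM in the control brood (log2 change -0.85). Kinesin and kinetochore genes had 25 rises and 16 falls among 80. Chromosome structure genes, 35 in all, had 13 rises and 4 falls, with top2a, the topoisomerase that untangles sister chromatids, at 100 RPM in the exposed brood and 63.3 RPM in the control brood (log2 change 0.67). Cyclins and their kinases were mixed at 12 rises and 10 falls among 50. The mitotic kinase gene cdk1 had 17.4 RPM in the exposed brood and 10.7 RPM in the control brood (log2 change 0.70), whereas the cyclin gene ccnb2 had 134 RPM in the exposed brood and 214 RPM in the control brood (log2 change -0.68). Anaphase promoting complex and centrosome genes had 8 rises and 24 falls among 67, including CDK5RAP2, a centrosome scaffold gene, with 6.43 RPM in the exposed brood and 12.4 RPM in the control brood (log2 change -0.94).

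Double-strand break repair and checkpoint genes fell more often than they rose, and excision and mismatch repair genes did not. Of 50 double-strand break repair and Fanconi genes 5 rose and 18 fell (median -0.36). The nuclease gene fan1 had 9.14 RPM in the exposed brood and 18.7 RPM in the control brood (log2 change -1.03), and the helicase gene blm had 13.8 RPM in the exposed brood and 9.71 RPM in the control brood (log2 change 0.51). Checkpoint kinases and mediators counted 3 rises and 9 falls among 21. The kinase gene atr, a sensor of stalled replication, had 3.61 RPM in the exposed brood and 6.97 RPM in the control brood (log2 change -0.95). Excision and mismatch repair genes had 9 rises and 5 falls among 48. The base excision nuclease gene apex1, which overlaps several genes, had 101 RPM in the exposed brood and 71.7 RPM in the control brood (log2 change 0.49). Apoptosis genes had 8 rises and 13 falls among 51, with the initiator caspase gene casp9 at 5.29 RPM in the exposed brood and 8.62 RPM in the control brood. Glutathione, thioredoxin and peroxide enzymes had 7 rises and 8 falls among 51, shares below those of all genes in both directions. Superoxide dismutase sod1 had 9.77 RPM in the exposed brood and 15 RPM in the control brood (log2 change -0.62), and the quinone reductase gene nqo1 had 22.8 RPM in the exposed brood and 14.5 RPM in the control brood (log2 change 0.65).

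In several intracellular signalling families falls outnumbered rises. Exchange factors and activating proteins of small GTPases, which switch small G proteins on and off, had 9 rises and 59 falls among 122 genes, with a median log2 change of -0.52 and a median span of 91348 bp. Of these genes asap3, an Arf regulator, had 4.21 RPM in the exposed brood and 12.4 RPM in the control brood (log2 change -1.55). The exchange factor gene plekhg5a had 0.71 RPM in the exposed brood and 3.06 RPM in the control brood (log2 change -2.11), and among the few rises the Rac exchange factor gene tiam1b had 7.26 RPM in the exposed brood and 4.53 RPM in the control brood (log2 change 0.68). PI3 kinase, Akt and mTOR pathway genes had 3 rises and 25 falls among 69 (median -0.38). The insulin receptor gene insrb had 9.70 RPM in the exposed brood and 22.6 RPM in the control brood (log2 change -1.22), and pik3r3b, a regulatory subunit gene, had 7.09 RPM in the exposed brood and 20.1 RPM in the control brood (log2 change -1.50). MAP kinase cascade genes and dual-specificity phosphatases had 13 rises and 38 falls among 79 (median -0.33). Besides mknk2a its relative mknk1 fell, with 13.4 RPM in the exposed brood and 34.3 RPM in the control brood (log2 change -1.36).

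Second messenger, phosphatase and scaffold families also held more falls than rises. PKA, PKC and calcium signalling genes had 18 rises and 48 falls among 131. The adenylate cyclase gene adcy9 had 7.75 RPM in the exposed brood and 19.8 RPM in the control brood (log2 change -1.35), adcy5 had 8.64 RPM in the exposed brood and 21.6 RPM in the control brood (log2 change -1.32), and the calmodulin gene calm2b had 95.8 RPM in the exposed brood and 65.6 RPM in the control brood (log2 change 0.55). Protein phosphatase subunits had 17 rises and 35 falls among 104. Scaffold genes with PDZ, ankyrin or SH3 domains had 9 rises and 36 falls among 96, with kank1, a scaffold of cortical actin, at 9.53 RPM in the exposed brood and 25.7 RPM in the control brood (log2 change -1.43).

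Membrane traffic families held more falls than rises. Rab GTPases and their regulators had 10 rises and 47 falls among 124 (median -0.32), and vesicle coat, SNARE and exocyst genes 20 rises and 66 falls among 192 (median -0.23). Among Rab genes the regulators moved farthest: the exchange factor gene dennd2c had 6.16 RPM in the exposed brood and 16.7 RPM in the control brood (log2 change -1.44), and DENND1A had 0.85 RPM in the exposed brood and 2.99 RPM in the control brood (log2 change -1.81). The recycling GTPase gene rab11a, in contrast, had 174 RPM in the exposed brood and 175 RPM in the control brood and was not called. For the Golgi, golga1 had 9.88 RPM in the exposed brood and 22 RPM in the control brood (log2 change -1.15). Transport into the nucleus went the other way, with 23 rises and 7 falls among 61 nucleoporin and transport receptor genes.

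Cytoskeleton genes changed by type. Actin, myosin and actin-binding genes had 25 rises and 26 falls among 103. The cytoplasmic actin genes rose, actb2 with 1848 RPM in the exposed brood and 1584 RPM in the control brood (log2 change 0.22) and actb1 with 656 RPM in the exposed brood and 557 RPM in the control brood (log2 change 0.24). The actin-binding scaffold gene afap1l1a had 5.56 RPM in the exposed brood and 16.4 RPM in the control brood (log2 change -1.56), and the mitochondrial myosin gene MYO19 had 4.85 RPM in the exposed brood and 13.4 RPM in the control brood (log2 change -1.47). Tubulins and microtubule-associated genes had 18 rises and 33 falls among 104. The tubulin gene tuba8l4 had 455 RPM in the exposed brood and 379 RPM in the control brood (log2 change 0.26), while mark3b, a microtubule affinity kinase gene, had 12.8 RPM in the exposed brood and 27.3 RPM in the control brood (log2 change -1.09).

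In most patterning pathways rises outnumbered falls. BMP pathway genes had 15 rises and 6 falls among 37. The BMP modulator gene bmper had 9.24 RPM in the exposed brood and 3.65 RPM in the control brood (log2 change 1.34), and the BMP target gene eve1 had 66.5 RPM in the exposed brood and 40.1 RPM in the control brood (log2 change 0.73). The ubiquitin ligase gene smurf1, which limits BMP receptors and Smads, had 42 RPM in the exposed brood and 58 RPM in the control brood (log2 change -0.47). FGF pathway genes had 10 rises and 2 falls among 25. Feedback inhibitors of that pathway rose, dusp6 with 95.7 RPM in the exposed brood and 66.1 RPM in the control brood (log2 change 0.53) and spry2 with 28.4 RPM in the exposed brood and 21.9 RPM in the control brood (log2 change 0.38). Wnt pathway genes had 21 rises and 10 falls among 52. The ligand gene wnt5b, which overlaps fbxl14b, had 8.65 RPM in the exposed brood and 4.55 RPM in the control brood (log2 change 0.93), and the extracellular inhibitor gene notum1a had 59 RPM in the exposed brood and 39 RPM in the control brood (log2 change 0.60). The destruction complex gene axin1 fell, with 53.4 RPM in the exposed brood and 79.2 RPM in the control brood (log2 change -0.57). In the Notch pathway 11 genes rose and 4 fell among 28, with the cyclic repressor gene her1 at 25.2 RPM in the exposed brood and 16.8 RPM in the control brood (log2 change 0.59).

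Nodal pathway genes, which specify mesendoderm, had 3 rises (14.3%) and 6 falls (28.6%) among 21, not far from the shares of all genes. The Nodal antagonist gene lft1 had 13.7 RPM in the exposed brood and 8.69 RPM in the control brood (log2 change 0.66). The receptor gene acvr2aa, for one, had 8.26 RPM in the exposed brood and 13.8 RPM in the control brood (log2 change -0.74). Retinoic acid pathway genes had 7 rises and 5 falls among 28. The synthesis enzyme gene aldh1a2 had 14.7 RPM in the exposed brood and 8.29 RPM in the control brood (log2 change 0.82), and the receptor gene rarab had 42.9 RPM in the exposed brood and 55.6 RPM in the control brood (log2 change -0.37). All 4 called genes of the 8 chemokine and apelin guidance genes rose, with cxcl12a, the chemokine that guides germ cells, at 11 RPM in the exposed brood and 8.15 RPM in the control brood.

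Several transcription factor families were weighted to rises. Homeobox factors had 20 rises and 4 falls among 45. The yolk syncytial factor gene mxtx2 had 12.4 RPM in the exposed brood and 8.58 RPM in the control brood (log2 change 0.53). Basic helix-loop-helix and Hes factors had 17 rises and 7 falls among 38. Among these the paraxial mesoderm gene msgn1, which overlaps dusp16, had 9.17 RPM in the exposed brood and 4.60 RPM in the control brood (log2 change 0.99), and mespab had 10.2 RPM in the exposed brood and 5.60 RPM in the control brood (log2 change 0.86). Gata and Klf factors had 9 rises and 1 fall among 24. T-box factors had 3 rises and 1 fall among 8. Their fall was eomesa, a maternal factor of endoderm induction, with 22.9 RPM in the exposed brood and 42.1 RPM in the control brood (log2 change -0.88), while the notochord and tail factor gene ta had 280 RPM in the exposed brood and 211 RPM in the control brood (log2 change 0.41). Nuclear receptors and coregulators fell more often, with 6 rises and 14 falls among 41. Sox factors were divided, with 5 rises and 4 falls among 13. The maternal Sox gene sox19b had 54 RPM in the exposed brood and 118.7 RPM in the control brood (log2 change -1.14), while sox11a had 107 RPM in the exposed brood and 83.6 RPM in the control brood (log2 change 0.36). Fox factors had 6 rises and 9 falls among 24, with foxi1, a factor of non-neural ectoderm, at 12.1 RPM in the exposed brood and 6.91 RPM in the control brood (log2 change 0.80), and foxp1a at 8.48 RPM in the exposed brood and 14.8 RPM in the control brood (log2 change -0.80). Myc, Max and E2F factors had 6 rises and 4 falls among 28. The cell cycle factor gene E2F2 had 21 RPM in the exposed brood and 13.7 RPM in the control brood (log2 change 0.62), and myclb had 7.83 RPM in the exposed brood and 15.2 RPM in the control brood (log2 change -0.96). Zinc finger and BTB factors, the most numerous of these families, had 39 rises and 41 falls among 183, close to the shares of all genes.

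Markers of several lists rose in most of their members. Of the 12 listed enveloping layer markers 10 rose and 0 fell, and of the 8 yolk syncytial layer markers 7 rose and 0 fell. Their summed levels were 3786 RPM in the exposed brood and 2965 RPM in the control brood for the enveloping layer, and 1261 RPM in the exposed brood and 855 RPM in the control brood for the yolk syncytial layer. In these lists cyt1 and cyt1l overlap each other and a further keratin marker, and apoa1a overlaps another gene. Reads of such genes cannot be assigned to one of them with certainty. Of the 5 listed ectoderm markers 4 rose and 0 fell (median 0.78), with summed levels of 473 RPM in the exposed brood and 402 RPM in the control brood. Keratin and periderm genes had 24 rises and 5 falls among 40 (median 0.35). The keratin gene krt4 had 1006 RPM in the exposed brood and 811 RPM in the control brood (log2 change 0.31), and the regulator gene grhl3, a Grainyhead factor of surface epithelium, had 124 RPM in the exposed brood and 86.2 RPM in the control brood (log2 change 0.53). Apolipoprotein and lipoprotein assembly genes had 12 rises and 4 falls among 24. The transfer protein gene mtp, needed to load lipid onto apolipoprotein B, had 133 RPM in the exposed brood and 104 RPM in the control brood (log2 change 0.35), and the receptor gene vldlr had 23.4 RPM in the exposed brood and 40.8 RPM in the control brood (log2 change -0.80). Cholesterol synthesis genes fell more often, with 2 rises and 7 falls among 18. The pathway gene hmgcs1 had 18 RPM in the exposed brood and 36.2 RPM in the control brood (log2 change -1.01). Of the 11 mesendoderm markers 6 rose and 0 fell, at summed levels of 1245 RPM in the exposed brood and 1065 RPM in the control brood.

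At the cell surface, cadherins and protocadherins had 17 rises and 4 falls among 35. The desmosomal plakophilin gene pkp3a had 33.7 RPM in the exposed brood and 20.3 RPM in the control brood (log2 change 0.73), and cdh6 had 30.8 RPM in the exposed brood and 16.5 RPM in the control brood (log2 change 0.90). Matrix genes had 16 rises and 7 falls among 44. Besides serpinh1b, whose product acts on collagen, the collagen prolyl hydroxylase gene p4ha2 had 9.21 RPM in the exposed brood and 4.86 RPM in the control brood (log2 change 0.92), and the laminin gene lama4 had 2.31 RPM in the exposed brood and 0.92 RPM in the control brood (log2 change 1.33). The lysyl hydroxylase gene plod1a was lower, with 0.65 RPM in the exposed brood and 2.34 RPM in the control brood (log2 change -1.84). Integrins and their adaptors had 4 rises and 6 falls among 23, with the focal adhesion kinase gene ptk2ab at 4.53 RPM in the exposed brood and 9.69 RPM in the control brood (log2 change -1.10). Claudins and junction genes had 5 rises and 7 falls among 41. Solute carriers had 44 rises and 46 falls among 200, near the shares of all genes despite the large rises named above. Cytochrome P450 and aldehyde dehydrogenase genes had 20 rises and 11 falls among 57.

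Among the remaining families, ephrins, semaphorins and other guidance genes had 15 rises and 15 falls among 60 (median -0.35), with the netrin receptor gene unc5da at 7.49 RPM in the exposed brood and 3.52 RPM in the control brood (log2 change 1.09) and the plexin gene plxnb1a at 1.91 RPM in the exposed brood and 5.99 RPM in the control brood (log2 change -1.65). ABC transporters and pumps had 13 rises and 15 falls among 69 (median -0.12). The sodium pump gene atp1b1a had 141 RPM in the exposed brood and 90.01 RPM in the control brood (log2 change 0.65), and the calcium pump gene atp2a2a had 15 RPM in the exposed brood and 36.9 RPM in the control brood (log2 change -1.30). Interferon and inflammation genes had 8 rises and 12 falls among 66 (median -0.17). The cytokine receptor gene il23r had 9.04 RPM in the exposed brood and 4.5 RPM in the control brood, and the signalling adaptor gene traf3 had 1.1 RPM in the exposed brood and 3.56 RPM in the control brood (log2 change -1.69).

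Duplicated genes were compared as 947 pairs of symbols that differ in a final a or b. Both members rose in 86 pairs, both fell in 91 and the members moved in opposite directions in 64. In 267 pairs a member fell while the other was not called, and in 170 pairs a member rose while the other was not called. The remaining 269 pairs had 2 members that were not called. These counts are to be read against 21.4% of pair members that rose and 27.1% that fell. Over all pairs the log2 changes of the members correlated weakly (r = 0.24, taken over both orders, a description across genes). The median size of the difference between members was 0.34 on the log2 scale. In 39 of the 64 opposite pairs the member of higher RPM was the one that rose. Among all genes, too, rises were more frequent at higher RPM, so this count is not particular to pairs. Among the 42 opposite pairs with both members at a mean of at least 5 RPM, the widest gap was that of trim2, a ubiquitin ligase: trim2a had 6.21 RPM in the exposed brood and 4.07 RPM in the control brood, and trim2b had 3.37 RPM in the exposed brood and 7.74 RPM in the control brood. Of the Ste20-like kinase genes, slka had 30.1 RPM in the exposed brood and 54.5 RPM in the control brood, and slkb had 19.8 RPM in the exposed brood and 12.6 RPM in the control brood. The tetraspanin genes cd82a and cd82b went apart likewise, cd82a with 12.9 RPM in the exposed brood and 8.91 RPM in the control brood and cd82b with 13.3 RPM in the exposed brood and 30.03 RPM in the control brood. For the heterochromatin protein genes, cbx3a had 323 RPM in the exposed brood and 301 RPM in the control brood, and cbx3b had 2.77 RPM in the exposed brood and 7.36 RPM in the control brood. The division also ran through Tead factors of Hippo signalling, with tead3a at 7.54 RPM in the exposed brood and 4.73 RPM in the control brood and tead3b at 10.7 RPM in the exposed brood and 17.4 RPM in the control brood.

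Set beside the 1-month broods of the same exposure study, which had their own 2 control samples, the changes at 1 year had mostly the opposite sign to those at 53 mGy/h and a weak positive correlation with those at 8.7 mGy/h. Genes that rose at 1 year had a median log2 change of -0.51 in the 53 mGy/h brood at 1 month and 0.03 in the 8.7 mGy/h brood at 1 month. For genes that fell the medians were 0.74 at 53 mGy/h and -0.08 at 8.7 mGy/h. Across genes, log2 changes correlated at r = -0.61 with the 53 mGy/h brood over 12154 genes and at r = 0.12 with the 8.7 mGy/h brood over 12171 genes. Over genes at a mean of at least 10 RPM in the 1-year comparison the values were r = -0.66 (6186 genes) and r = 0.25 (6188 genes). No such limit was set on their level in the 1-month broods. Of genes with a value in the 8.7 mGy/h brood at 1 month, 58.7% of those that rose at 1 year and 34.2% of those that fell were higher there than in its controls, beside 42.6% of all such genes. These are descriptions across genes, which are not independent replicates, and a difference between broods was not tested. The controls themselves differed in level: ta had 211 RPM in the 1-year controls and 44.4 RPM in the 1-month controls, and eve1 40.1 and 2.69 RPM. Some markers went the other way, such as mxtx2 with 8.58 RPM in the 1-year controls and 46.75 RPM in the 1-month controls. The part of such differences in the comparison of broods was not tested. Of the 114 large falls described above, 113 were higher and 1 was lower in the 53 mGy/h brood than in its controls, and all 13 of the 16 large rises with a value there were lower. Apart from these, serpinh1b had 1.1 RPM at 8.7 mGy/h and 1.36 RPM at 53 mGy/h in the 1-month broods, against 1.73 RPM in their controls.

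**Figure D5:**
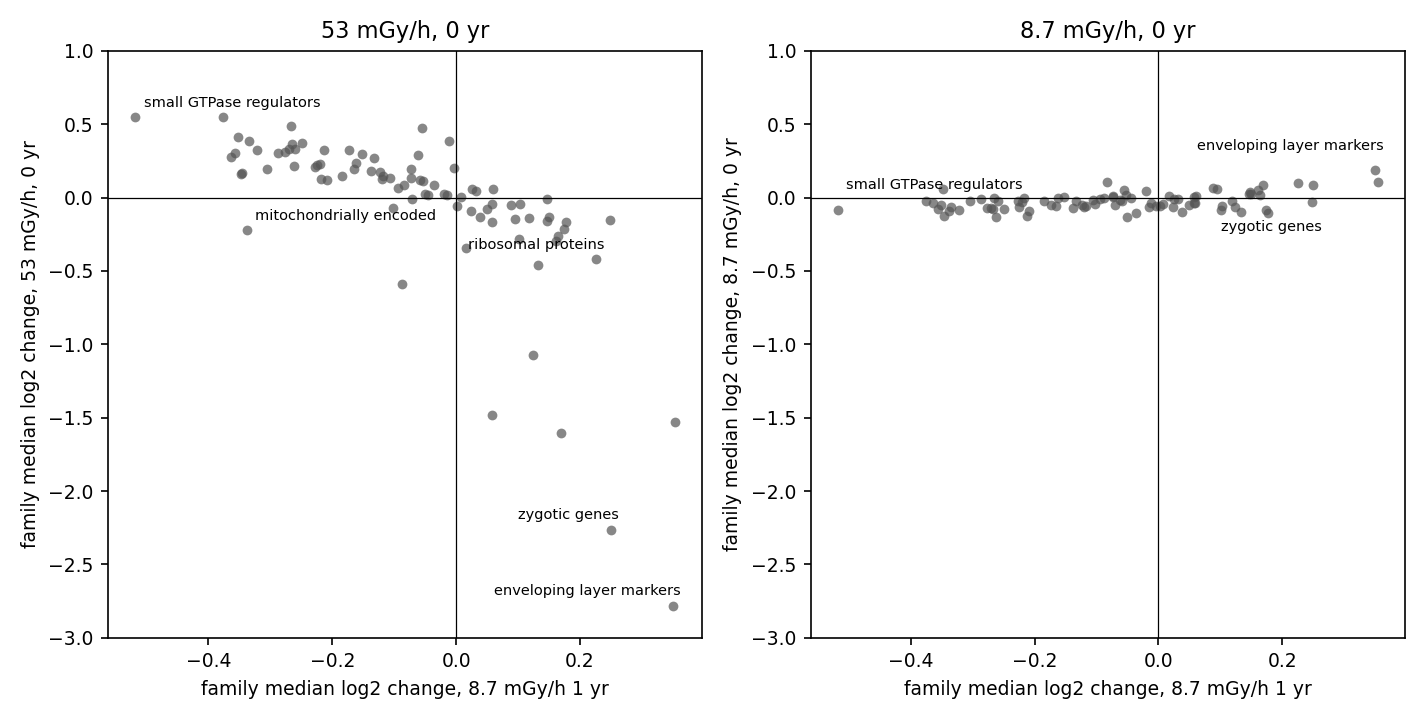
Median log2 change of each family of 13 or more listed members at 8.7 mGy/h in the 1-year brood (horizontal axis) against its median in the 1-month brood at 53 mGy/h (left) and at 8.7 mGy/h (right), each over its own controls. The enveloping layer list here holds 13 genes, with krt18 added to the 12 markers, and 11 of them rose. Families that are high at 1 year are low at 53 mGy/h, down to the enveloping layer markers, and lie near 0 at 8.7 mGy/h, while the mitochondrially encoded transcripts are low at 1 year and at 53 mGy/h.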

How the data were processed

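Per the labels' protocols, total RNA of 100 embryos per sample was extracted with TRIzol, and 1.5 µg was used for poly(A)-selected, non-directional libraries sequenced as 150 bp paired ends. Per the submitters' processing notes, tools were DESeq2, STAR 2.5.2b, FastQC 0.11.5 and Trim Galore 0.4.2, with GRCz10 as build. The authors deposited RPM and log2 RPM per group, and a ratio, a signed fold and an FDR, an adjusted p-value, per gene. The signed fold is a score in which the authors wrote a fall as the negative inverse ratio. Which test gave the FDR, and the spread between samples, are not given in the sources used here. From the deposited values log2 change, calls, counts and medians were derived in pandas 2.3.3 and numpy 2.4.6 (Python 3.11.15) and drawn in matplotlib 3.10.9. No test was run. Counting was tested on simulated data.

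The comparison, families, markers and their patterns were chosen with earlier results of these data known. Families were matched on symbols, and 11 symbols in date form were not matched to a family. Named genes were the 15 largest rises and falls at a mean of at least 10 RPM, the 5 smallest FDR each way, in each family up to 4 called members each way with the largest change at a mean of at least 5 RPM and the 2 of highest RPM, at least 2-fold members, and the 8 widest opposite pairs. Other names are stated as chosen after their values were seen. Alternatives were a stricter FDR (0.01), mean RPM of at least 1 or 10, at least 1.5-fold, centring, and leaving out symbols written as "n of m". A few members and families are not reported here.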

Additional observations from a re-analysis of the deposited data

How the results depend on the processing

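The 2500 rises became 1765 at an FDR under 0.01, 1776 at a mean of at least 10 RPM and 536 at 1.5-fold or more. The 2801 falls became 2089 at an FDR under 0.01, 1508 at a mean of at least 10 RPM and 1854 at 1.5-fold or more, so rises outnumbered falls at 10 RPM or more and falls outnumbered rises otherwise. The balance of calls (rises minus falls) turned to positive in 7 families. At 10 RPM or more it was 3 for glycolysis enzymes, 12 for zinc finger and BTB factors, 6 for solute carriers, 3 for actin, myosin and actin-binding genes, 1 for TRIM and RING finger genes and 2 for interferon and inflammation genes. At an FDR under 0.01 it was 1 for citrate cycle enzymes and 3 for solute carriers. The cause was not tested. Centring on the median of all genes turned the sign of 0 called genes and of 25 of the 71 named genes that were not called.

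No paired analysis was possible because the table gives 1 value per group, and for the same reason leaving out a sample was not run. A call rests on the authors' FDR, whose spread between samples is not in the table. At low levels fewer genes were called: 1235 of 1576 genes below 2 RPM were not called, against 979 of 2026 between 10 and 20 RPM.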

Other observations

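Gene sets outside the families above were drawn up after their values were seen and are given as values. Of 8 serpin genes 5 rose and 0 fell, and of 13 cathepsin genes, lysosomal proteases, 7 rose and 1 fell. The cathepsin L-like gene ctsll had 98.7 RPM in the exposed brood and 49.4 RPM in the control brood. Of 21 circadian clock genes 1 rose and 10 fell, with a median log2 change of -0.32. The repressor gene cry1b had 4.81 RPM in the exposed brood and 13.9 RPM in the control brood, and nr1d2a had 0.55 RPM in the exposed brood and 2.08 RPM in the control brood. Of 25 CLK kinase and RS domain genes, which act in splicing, 20 rose and 0 fell. Of 57 glycosyltransferase and sulfotransferase genes of matrix sugars 2 rose and 17 fell, with the chondroitin synthase gene chsy1 at 10.3 RPM in the exposed brood and 26.9 RPM in the control brood.

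Chromosome 4, whose long arm is rich in repeats and clone-named genes, differed from the other chromosomes. Of its 367 listed genes from 30 Mb on (GRCz10), 63 rose (17.2%) and 5 fell (1.36%), with a median log2 change of 0.19. On all other chromosomes together, 20.0% of genes rose and 23.2% fell, with a median of -0.10. The stretch had a lower level, with a median of 3.17 RPM against 10.4 RPM on the other chromosomes. Of all genes between 2 and 5 RPM, 10.6% rose and 19.3% fell. Of the 339 genes of chromosome 4 before 30 Mb, 23.9% rose and 16.5% fell, with a median log2 change of 0.01. In the 1-month broods the same stretch had medians of -2.43 at 53 mGy/h (342 genes) and 0.01 at 8.7 mGy/h (349 genes). Medians of the other numbered chromosomes lay between -0.17 and -0.03 in the 1-year brood.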
